A study of Danio rerio with 2 samples.

Results

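The cells described here are cluster 8 of the 15 numbered clusters into which the submitters grouped trunk cells of zebrafish embryos at 27 hours post fertilization. They carry the working name hematopoietic stem and progenitor cells and were marked by spi2, myb, dnmt3ba and cebpa. The cluster was taken from the deposited table of cluster means, whose 2 columns for it were multiplied back to whole sums of UMIs (unique molecular identifiers, each counting 1 captured transcript). It held 183 of 6227 wildtype cells and 184 of 6125 mutant cells, 367 of 12352 cells in all. The cells were sorted for a membrane mCherry driven by the kdrl promoter of endothelium and taken through droplet sequencing of transcript 3′ ends. Wildtype fish carried the activator Tg(miR-223:KalTA4)ya362, its responder Tg(5xUAS:eGFP)nkuasgfp1a and the vessel reporter Tg(kdrl:hras-mCherry)s896. Mutant fish carried the same UAS and kdrl transgenes, with Tg(miR-223:KalTA4)ya363 in place of the ya362 allele, and miR-223(ya303). Both groups therefore shared a KalTA4 activator at miR-223 that drives eGFP, and the activator allele differs between them together with the mutation. There was 1 library per genotype. No p-value is given, intervals cover counting error only, and the clusters were made from the genes compared, so differences between clusters are descriptions.

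In zebrafish, as in other vertebrates, blood stem and progenitor cells bud from hemogenic endothelium in the floor of the dorsal aorta. Transcription factors such as Runx1, Myb, Gata2b and Gfi1aa act in that transition, in which vascular genes are shut down and blood genes come on. A separate wave of embryonic erythrocytes, neutrophils and macrophages arises earlier from mesoderm. The microRNA miR-223 is best known from myeloid cells, where it limits neutrophil numbers and activity in mice.

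Cluster 8 summed to 1349696 UMIs in the wildtype library and 1332032 in the mutant library, a mean of 7375 and 7239 UMIs per cell. The comparison clusters were arterial endothelial cluster 3 (913 wildtype and 782 mutant cells), erythroid cluster 4 (542 and 1117 cells), and myeloid clusters 11 (18 and 157 cells) and 14 (33 and 30 cells). The wildtype values of clusters 11 and 14 rest on few cells. Levels are given as CPM, the UMIs of a gene scaled to 1000000 UMIs of the cluster in that library. In cluster 4 the 24 listed erythroid genes took up 405741 CPM (wildtype) and 334797 CPM (mutant), which lowers the CPM of all its other genes. A zero in cluster 8 allows up to 2.22 CPM (wildtype) and 2.25 CPM (mutant), the equivalent of 3 counts. A sum over a cluster cannot tell a few cells with much of a transcript from many cells with little. The table was also not made from the deposited matrices alone, because 90 genes (wildtype) and 64 (mutant) had more UMIs in the table than in the whole matrix of that library. With the libraries exchanged, 1980 and 1316 genes did, so the columns were kept with the library their name gives. The matrices of the 2 libraries shared 98 cell barcodes among 8702 and 9176.

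All markers but cebpa were higher in cluster 8 than in any of the other 14 clusters in both libraries. The ETS factor spi2, of the family of the myeloid factor PU.1, stood at 1070 CPM (wildtype) and 797 CPM (mutant), while the next cluster held 18.6 and 11.98 CPM. The stem cell factor myb stood at 253 and 251 CPM, against 90.2 and 93.7 CPM in myeloid cluster 11, the next in order. The DNA methyltransferase gene dnmt3ba reached 265 and 289 CPM, with no other cluster above 23.0 CPM. The myeloid factor cebpa did not mark cluster 8 alone. Its 402 and 374 CPM were second to cluster 11, which held 1034 and 730 CPM, and it ranked 29 by the score that ordered the leading genes. Each marker was counted in every library from at least 335 UMIs, so counting error moved these levels little.

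The 12 leading genes were those with the largest ratio over the mean of the other 14 clusters, taken as the lower of both libraries, among 1008 genes with at least 100 CPM in cluster 8. They were spi2, zgc:171686, cox8b, myb, dnmt3ba, nanos1, blf, dnase1l4.1, lpar5a, inka1b, pmp22b and si:dkey-239h2.3. The most abundant product among them was dnase1l4.1, a deoxyribonuclease-like gene, at 2873 CPM (wildtype) and 2444 CPM (mutant). Arterial cluster 3 held 155 and 88.4 CPM of dnase1l4.1. The next in order held far more, with 1363 CPM in cluster 6 (wildtype) and 666 CPM in cluster 13 (mutant). The RNA-binding repressor gene nanos1 stood at 210 and 231 CPM and set cluster 8 apart from the blood clusters more than from endothelium. Arterial cluster 3 still held 74.1 and 57.1 CPM of nanos1, while cluster 4 held 0.204 and 0.786 CPM. In cluster 11 nanos1 had 0 and 2 UMIs and in cluster 14 none, and with so few cells a zero allows up to 18.0 CPM in the wildtype library of cluster 11 and 13.4 and 11.6 CPM in cluster 14. The opposite held for blf, a zinc finger gene of zebrafish blood formation, at 853 and 916 CPM. Erythroid cluster 4 held more of it, at 1168 and 1300 CPM, and arterial cluster 3 held 24.2 and 23.1 CPM. The lysophosphatidic acid receptor gene lpar5a was shared with neutrophil-rich cluster 11, at 114 and 117 CPM in cluster 8 and 126 and 129 CPM there. In cluster 3 lpar5a had 2 UMIs in the wildtype library and none in the mutant library, where cluster 8 was at least 208-fold higher against the floor of 3 counts.

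**Figure D1:**
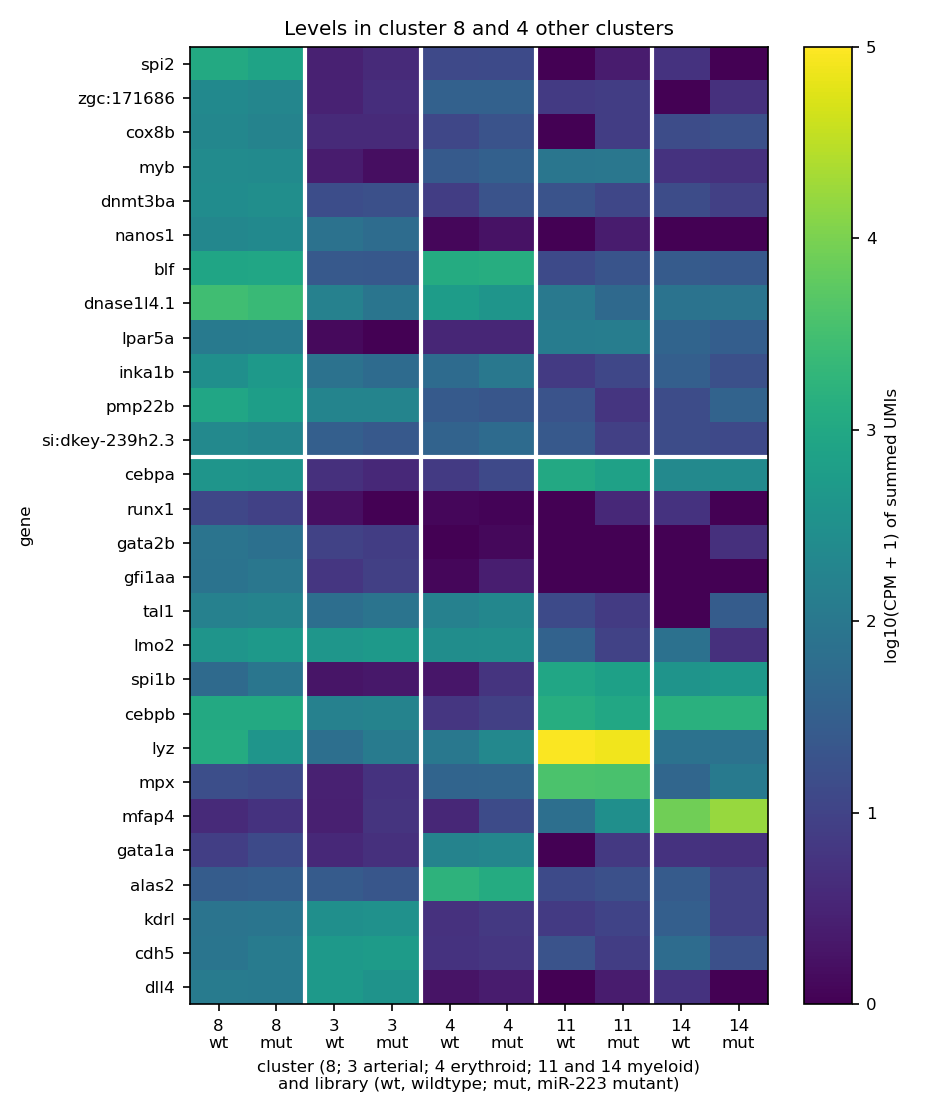
Heatmap of log10(CPM + 1) for 28 genes (rows) in clusters 8, 3, 4, 11 and 14, with the wildtype and the mutant library side by side for each cluster; the upper block holds the 12 leading genes and the lower block cebpa and genes of blood and vessel programs. The columns of cluster 8 are lighter than most others for the leading genes in both libraries (spi2 at 1070 and 797 CPM), intermediate for kdrl, cdh5 and dll4, and dark for gata1a and mfap4.

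Some progenitor factors were far lower in arterial endothelium than in cluster 8, and others were shared with vessels or with red cells. Of 23 listed factors 21 were in the table, and 9 passed the filter of a mean of 20 CPM in cluster 8. The first group held gata2b, which acts upstream of runx1 in zebrafish hemogenic endothelium, at 81.5 CPM (wildtype) and 70.6 CPM (mutant). Arterial cluster 3 held 8.86 and 6.95 CPM of gata2b, and cluster 11 had no UMI of it, which allows up to 18.0 CPM (wildtype) and 2.13 CPM (mutant) there. The repressor gene gfi1aa, a target of Runx1 in the endothelial-to-hematopoietic transition of mice, stood at 79.3 and 95.3 CPM, against 5.07 and 7.89 CPM in cluster 3. The lymphoid and stem cell factor ikzf1 stood at 95.6 and 103 CPM and at no more than 1.42 CPM in cluster 3. It was shared with myeloid cluster 11, which held 78.2 and 50.4 CPM.

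The shared group held factors that both endothelium and blood use. The LIM-only factor lmo2 was at 405 CPM (wildtype) and 491 CPM (mutant), close to the 418 and 516 CPM of cluster 3. Its partner tal1 stood at 158 and 169 CPM, above cluster 3 (63.5 and 84.3 CPM), while cluster 4 held 159 and 210 CPM. The ETS factor fli1a was lower in cluster 8 than in cluster 3, at 262 and 258 CPM against 540 and 547 CPM. The central regulator runx1 was thinly sampled, with 14 UMIs (wildtype) and 11 UMIs (mutant), or 10.4 CPM (exact Poisson interval 5.67 to 17.4) and 8.26 CPM (4.12 to 14.8). Even so, clusters 3 and 4 held at most 0.633 CPM of runx1. Of the other factors under the filter, mecom, hlfa and bcl11ba had no UMI in cluster 8 in either library.

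Against arterial cluster 3, 5 of the 10 progenitor factors with a mean of 20 CPM over the 4 columns were at least 2-fold higher in both libraries and 2 were at least 2-fold lower. Over all 4045 genes so compared, 15.2% were higher and 14.1% lower by this rule. The median log2 ratio of the 10 factors over cluster 3 was 1.99 (wildtype) and 1.85 (mutant), where all genes had 0.10 and 0.12.

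Cluster 8 carried transcripts of some myeloid factors, while neutrophil products were far lower than in cluster 11 and macrophage products than in cluster 14. Of 10 myeloid factors compared with cluster 11, 3 were at least 2-fold higher and 2 lower, beside 21.7% and 15.4% of all genes. Of 11 compared with cluster 14, 3 were higher and 6 lower, beside 18.3% and 14.9%. The median log2 ratio over cluster 14 was -1.45 (wildtype) and -1.11 (mutant). The C/EBP factor cebpb stood at 1107 CPM (wildtype) and 1101 CPM (mutant), within the range of cluster 11 (1323 and 976 CPM) and below cluster 14 (1487 and 1565 CPM). PU.1 itself, encoded by spi1b, stood at 51.9 and 90.1 CPM and thus far below cluster 11 (920 and 684 CPM) and cluster 14 (380 and 459 CPM). The macrophage factor irf8 had 3 and 2 UMIs in cluster 8, while cluster 14 held 80.4 and 61.7 CPM. The pan-leukocyte genes were lower in cluster 8 than in the myeloid clusters and varied against cluster 3. The actin regulator gene coro1a stood at 213 and 242 CPM in cluster 8, at 2.85 and 3.94 CPM in cluster 3, and at 2249 and 2772 CPM in cluster 11. The summed level of the 14 pan-leukocyte genes in the table was 1100 and 1120 CPM in cluster 8, 624 and 406 CPM in cluster 3, and 9583 and 10206 CPM in cluster 11. Of 8 compared with cluster 3, 4 were at least 2-fold higher in cluster 8 and 1 was at least 2-fold lower, beside 15.2% and 14.1% of all genes.

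Of 14 neutrophil genes compared with cluster 11, all 14 were at least 2-fold lower in cluster 8 in both libraries, where 15.4% of all 4003 genes were lower and 21.7% higher. The granule enzyme myeloperoxidase, from mpx, stood at 14.8 CPM (wildtype) and 12.01 CPM (mutant) in cluster 8, and at 3890 and 3702 CPM in cluster 11. The lysozyme gene lyz was at 1171 and 411 CPM in cluster 8 and at 94299 and 76975 CPM in cluster 11. Against cluster 14 the neutrophil genes were less even. Of 13 compared, 8 were at least 2-fold lower in cluster 8 and 1 higher, beside 14.9% and 18.3% of all genes. The 15 neutrophil genes summed to 2070 and 1376 CPM in cluster 8 and to 2872 and 3873 CPM in cluster 14. Of 8 macrophage genes compared with cluster 14, all 8 were at least 2-fold lower in cluster 8, where 14.9% of all 3967 genes were lower and 18.3% higher. Of the 16 macrophage genes in the table, 10 had no UMI in cluster 8 in either library, among them mpeg1.1, marco and csf1ra. The 8 thrombocyte and 4 lymphoid genes in the table were sparse too. The thrombocyte and stem cell integrin gene itga2b and the thrombopoietin receptor gene mpl had no UMI in either library, and the receptor gene kita had 1 UMI in the wildtype library only.

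Endothelial transcripts were present in cluster 8 at a reduced level. Compared with arterial cluster 3, 16 of 17 pan-endothelial and all 8 arterial genes were at least 2-fold lower in both libraries, where 14.1% of all genes were. The receptor gene kdrl, whose promoter drove the sorted reporter, stood at 81.5 CPM (wildtype) and 85.6 CPM (mutant) in cluster 8 and at 302 and 336 CPM in cluster 3. VE-cadherin, from cdh5, stood at 88.2 and 119 CPM against 486 and 558 CPM. The level was above that of red cells, where cluster 4 held 4.48 and 5.11 CPM of cdh5. Muscle-gated cells of the matrices, described below, held 42.3 and 44.1 CPM of it, so red cells are not the only reference. The myeloid clusters were less far below in the wildtype library. The 20 pan-endothelial genes summed to 1533 and 1586 CPM in cluster 8, 962 and 157 CPM in cluster 11, and 889 and 220 CPM in cluster 14. At least 2-fold higher in cluster 8 were 8 of 13 against cluster 11 (21.7% of all genes) and 7 of 14 against cluster 14 (18.3%). The difference from cluster 3 was not even across genes. The VEGF decoy receptor gene flt1 was 49.0-fold and 32.0-fold higher in cluster 3 than in cluster 8, and the ETS factor gene etv2 17.0-fold and 15.4-fold. The aquaporin gene aqp8a.1 was 10.0-fold and 10.7-fold higher in cluster 3, while kdrl was 3.70-fold and 3.92-fold higher.

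Arterial Notch genes followed the same order. The Notch ligand gene dll4 stood at 118 CPM (wildtype) and 107 CPM (mutant) in cluster 8, against 508 and 376 CPM in cluster 3. The Notch target gene hey2 stood at 38.5 and 36.0 CPM against 246 and 214 CPM. The receptor genes notch1a and notch1b were sparse, with at most 14 UMIs each per library in cluster 8. Of 8 Notch genes compared with cluster 3, 5 were at least 2-fold lower and none at least 2-fold higher, beside 14.1% and 15.2% of all genes. The Hairy-related genes her6 and her9 were among the 3 others. The level of her6 was 44.5 and 63.8 CPM in cluster 8 and 32.9 and 33.98 CPM in cluster 3, and that of her9 was 20.7 and 41.3 CPM against 29.9 and 27.8 CPM.

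The venous list had 5 genes to compare with cluster 3. At least 2-fold lower were 3 of them and none higher, beside 14.1% and 15.2% of all genes. Not every abundant transcript of cluster 3 was lower in cluster 8. The complexin gene cplx2l, of a family that regulates vesicle release, stood at 1910 CPM (wildtype) and 2093 CPM (mutant) in cluster 8 and at 1938 and 1751 CPM in cluster 3. Cluster 4 held 19.2 and 18.2 CPM of it and cluster 11 held 36.1 and 14.2 CPM. It was among the 5 genes with the largest excess of cluster 8 over each of those 2 blood clusters.

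The summed erythroid level of cluster 8 was close to that of arterial endothelium. All 23 erythroid genes compared with cluster 4 were at least 2-fold lower in cluster 8, where 5.52% of all 3444 genes were lower and 40.5% higher. The erythroid factor gata1a had 10 UMIs (wildtype) and 16 UMIs (mutant), or 7.41 and 12.01 CPM, against 172 and 194 CPM in cluster 4. The 24 erythroid genes, embryonic globins included, summed to 9529 and 9566 CPM in cluster 8 and to 9932 and 9487 CPM in cluster 3. Of 15 erythroid genes compared with cluster 3, 3 were at least 2-fold higher in cluster 8 and none lower, beside 15.2% and 14.1% of all genes. Their median log2 ratios were 0.15 (wildtype) and 0.52 (mutant). The heme synthesis gene alas2 likewise stood at 27.4 and 30.0 CPM in cluster 8 and 26.4 and 20.7 CPM in cluster 3. Of cells gated as muscle, 42.8% (wildtype) and 48.8% (mutant) had a UMI of alas2 at 2000 UMIs per cell. Their alas2 level was 771 and 621 CPM and their gata1a level 90.9 and 115 CPM, far above cluster 8. Red cells or doublets may be among them, which was not tested, so they do not show red cell transcripts outside blood. The part of free RNA in the cluster 8 levels was not tested.

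Ribosome biogenesis was described with a list of 24 nucleolar genes drawn up after the values were seen, so its counts support nothing about the group. Of 22 members compared, 22 were at least 2-fold higher in both libraries than in cluster 3, where 15.2% of all genes were, 22 than in cluster 11 (21.7% of all genes) and 20 than in cluster 14 (18.3%). Against cluster 4 it was 10 of 22, close to the 40.5% of all genes. Nucleophosmin, from npm1a, stood at 937 CPM (wildtype) and 1035 CPM (mutant) in cluster 8 and at 113 and 115 CPM in cluster 3. The rRNA methyltransferase fibrillarin, from fbl, stood at 458 and 483 CPM against 71.6 and 76.8 CPM. The 23 members in the table summed to 6307 and 6569 CPM in cluster 8, to 1313 and 1295 CPM in cluster 3, and to 1643 and 3251 CPM in cluster 4. Cluster 4 thus differed by library more than cluster 8 did.

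Replication genes did not set cluster 8 apart from arterial endothelium, whereas mitosis genes were lower. None of 20 replication genes was 2-fold higher or lower than in cluster 3, where 15.2% of all genes were higher and 14.1% lower. The sliding clamp gene pcna stood at 522 CPM (wildtype) and 597 CPM (mutant) in cluster 8 and at 476 and 602 CPM in cluster 3. Of 15 mitosis genes 7 were at least 2-fold lower than in cluster 3 and none higher, beside the same 14.1% and 15.2% of all genes. Their median log2 ratio was -1.36 (wildtype) and -0.95 (mutant). The anaphase activator gene cdc20 had 7 and 21 UMIs in cluster 8, or 5.19 and 15.8 CPM, against 64.6 and 59.7 CPM in cluster 3. The proliferation gene mki67 stood at 43.0 and 57.1 CPM, close to the 43.1 and 65.0 CPM of cluster 3. Compared with the myeloid clusters, 9 of 17 replication genes were at least 2-fold higher than in cluster 11, where 21.7% of all genes were. Against cluster 14 it was 9 of 17, where 18.3% of all genes were.

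**Figure D2:**
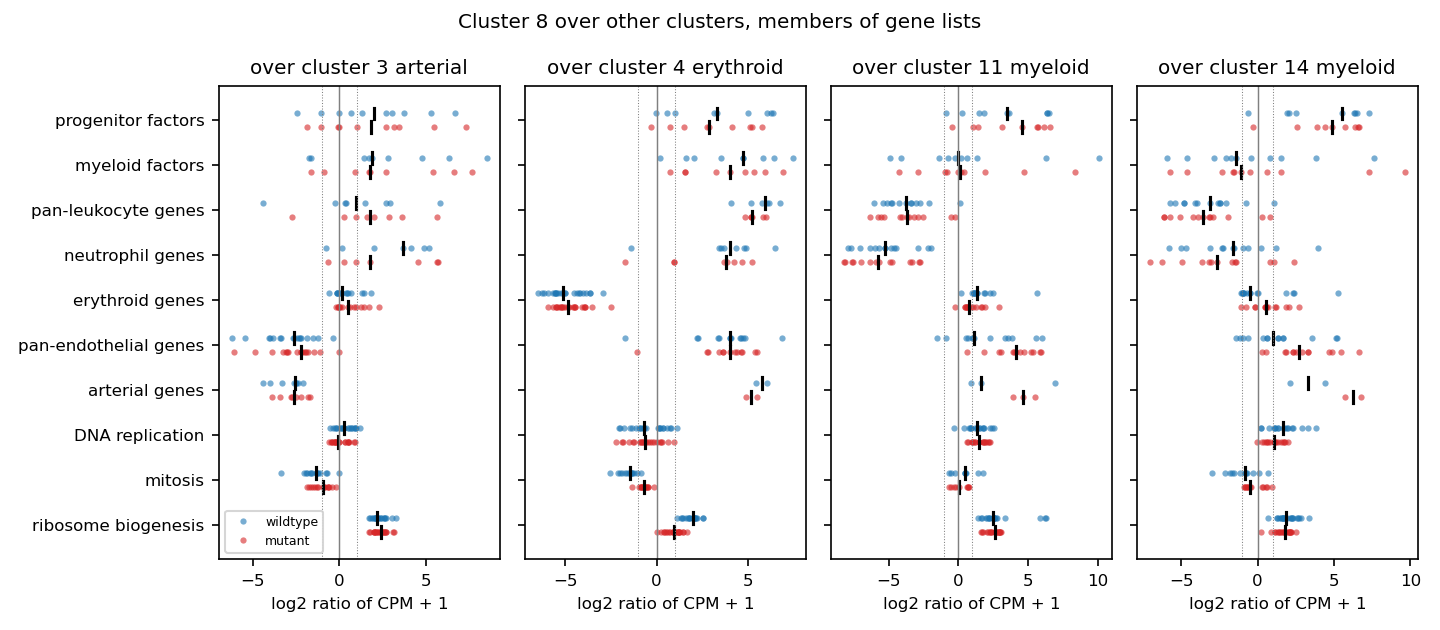
Log2 ratio of CPM + 1 in cluster 8 over clusters 3, 4, 11 and 14 (4 panels) for the members of 10 gene lists that reach a mean of 20 CPM; points are genes, blue for the wildtype and red for the mutant library, short black bars are medians and dotted lines mark 2-fold. Ribosome biogenesis genes lie at or to the right of 0 in all panels and pan-endothelial and arterial genes to the left in the first (16 of 17 and 8 of 8 at least 2-fold lower), while erythroid genes lie left in the second and neutrophil genes left in the third.

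Of the 14 genes of DNA methylation, 6 were compared with cluster 3. At least 2-fold higher were 2 of them, where 15.2% of all genes were, and none was lower. These were the de novo methyltransferase genes dnmt3ba, itself a marker of the cluster, and dnmt3bb.1. Besides dnmt3ba, dnmt3bb.1 was higher in cluster 8 than in cluster 3, at 133 CPM (wildtype) and 80.3 CPM (mutant) against 21.8 and 19.0 CPM. In zebrafish, dnmt3bb.1 is known to sustain myb expression in blood stem cells through methylation of the gene body. The maintenance methyltransferase gene dnmt1, by contrast, had 27 and 33 UMIs in cluster 8 and so stood near its cluster 3 level of 13.9 and 16.1 CPM, with a log2 ratio over cluster 3 of 0.49 (wildtype) and 0.59 (mutant). The demethylase genes tet1 and tet2 had at most 3 UMIs each per library.

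Protein N-glycosylation was covered by 2 lists. In the assembly of the lipid-linked precursor and its transfer to proteins, 28 of 30 genes were in the table. With cluster 3, 11 were compared and none was 2-fold higher or lower, beside 15.2% and 14.1% of all genes. The transferase subunit gene dad1 stood at 462 CPM (wildtype) and 460 CPM (mutant) in cluster 8 and at 754 and 810 CPM in cluster 3. In trimming and branching, 29 of 35 genes were in the table, 12 were compared with cluster 3, and 3 were at least 2-fold lower, where 14.1% of all genes were. Calreticulin, from calr, was 1 example, at 100 and 144 CPM against 306 and 404 CPM. Against cluster 4 all 6 trimming genes compared were at least 2-fold higher, where 40.5% of all genes were.

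The mutant library was compared with the wildtype library within cluster 8. The cluster made up 2.94% of the cells in the wildtype library, with an exact binomial interval of 2.53 to 3.39, and 3.004% in the mutant library, with 2.59 to 3.46. The difference of 0.0653 percentage points had a Newcombe interval of -0.536 to 0.668, which covers the counting of cells and not the spread between libraries. Over the same cells erythroid cluster 4 made up 8.70% and 18.2%. The profiles were also close. Of the 3973 genes whose mean reached 20 CPM, 88.5% lay within 1.5-fold, and the median log2 ratio (mutant over wildtype, 1 CPM added to each) was 0.06. At least 2-fold higher in the mutant library were 67 genes (1.69%), and at least 2-fold lower were 53 (1.33%). Both counts hold genes that differed throughout the libraries, as the values by cluster show.

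The 4 markers and the progenitor factors differed little. The marker spi2 was lower in the mutant library, at 797 against 1070 CPM, a log2 ratio of -0.42 (exact conditional interval -0.54 to -0.31). The log2 ratios of myb, dnmt3ba and cebpa were -0.01, 0.12 and -0.11, each with an interval that held 0. None of the 9 progenitor factors reached 2-fold in either direction, and their log2 ratios ran from -0.21 to 0.28 with a median of 0.10. The intervals of gata2b (-0.62 to 0.20) and gfi1aa (-0.12 to 0.65) both held 0 and stayed within 2-fold. Among the leading genes the highest ratio was that of inka1b, a regulator of p21-activated kinase, at 304 CPM (wildtype) and 488 CPM (mutant). Its log2 ratio was 0.68 (0.50 to 0.87), while pmp22b, of the peripheral myelin protein family, was lower at 896 and 648 CPM (-0.47, interval -0.60 to -0.34).

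Of the 9 myeloid factors 1 was at least 2-fold higher and none lower, beside 1.69% and 1.33% of all 3973 genes tested. The higher factor was cebpd, at 75.6 CPM (wildtype) and 155 CPM (mutant), a log2 ratio of 1.03 (0.69 to 1.40). Cluster 3 held 261 and 284 CPM of cebpd. The level of spi1b was 51.9 and 90.1 CPM, from 70 and 120 UMIs, and its log2 ratio was 0.78 (0.36 to 1.24), under the 2-fold line. The median of the 9 was -0.01.

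Neutrophil genes of cluster 8 differed in both directions. The level of lyz was 1171 CPM (wildtype) and 411 CPM (mutant), a log2 ratio of -1.51 (-1.66 to -1.37). The gelatinase gene mmp9 went the other way, from 37.8 to 110 CPM and a log2 ratio of 1.51 (1.07 to 2.03). Of the 9 tested, 4 were higher and 5 lower, with a median of -0.19, and 4 of all 15 listed genes were higher and 11 lower. Over all genes, 2310 of 3973 tested were higher, and of all 17819 genes 7836 were higher and 6028 lower. In the stricter gate the median was 0.77, beside 0.03 over all genes tested there. Where single cells could be seen, lyz was concentrated in few of them. A stricter gate on the matrices took cells with at least 2 UMIs each of myb and spi2. There, 10 cells held 97.1% of the lyz UMIs (wildtype) and 95.3% (mutant). The highest wildtype cell alone held 1517 of the 5201 lyz UMIs of that gate. In the cells of this stricter gate the lyz level was 2047 and 2206 CPM, so the lower mutant value was not found there. In the main marker gate, described below, lyz was lower in the mutant library, at 7643 CPM (wildtype) and 5269 CPM (mutant). The direction thus depended on the gate. The part that single lyz-rich cells have in the cluster 8 value was not tested.

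**Figure D3:**
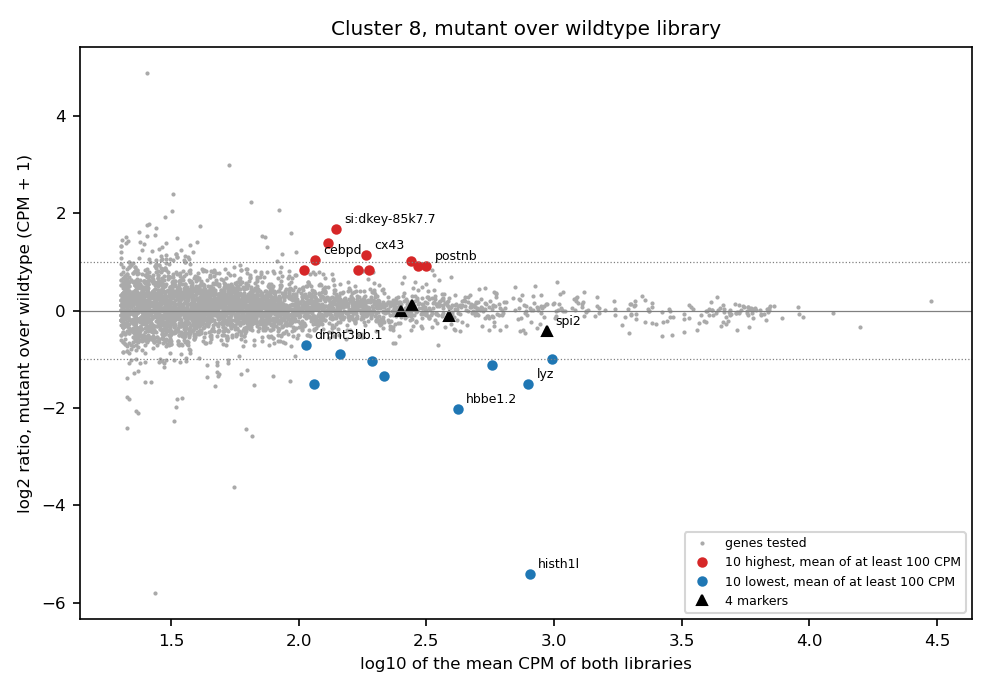
Log2 ratio of mutant over wildtype (CPM + 1) against log10 of the mean CPM for the 3973 genes tested in cluster 8 (grey), with the 10 highest (red) and 10 lowest (blue) genes above a mean of 100 CPM and the 4 markers (triangles); dotted lines mark 2-fold. Most points lie close to 0, histh1l lies lowest of the named genes at -5.41, and the markers lie between -0.42 and 0.12.

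The 10 lowest and 10 highest ratios among the 1076 genes whose mean in cluster 8 reached 100 CPM were named, and several of them differed between the libraries in every cluster compared. The linker histone gene histh1l was at 1570 CPM (wildtype) and 36.0 CPM (mutant) in cluster 8, a log2 ratio of -5.41. Its ratio was between -7.10 and -5.30 in the other 4 clusters, so it separated the libraries in every cluster compared. The globin genes hbbe1.2 (-2.03) and hbae1.1.1 (-1.13), the glutathione transferase gene gsta.1 (-1.04) and si:ch73-1a9.3 (-0.998) were likewise lower in the mutant library in all 5 clusters. The name hbae1.1.1 is the table's label for the second of 2 genes with the symbol hbae1.1, and reads of such copies may be shared between them. The annexin gene anxa4 (-1.51) was lower in all 5 clusters too, with a ratio of -0.14 in cluster 14. The LIM-domain gene fhl1b stood at 309 and 121 CPM in cluster 8, a log2 ratio of -1.35. The endothelial receptor gene ecscr stood at 188 and 101 CPM in cluster 8, and at 248 and 104 CPM in cluster 3.

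The tenth lowest gene was dnmt3bb.1, at 133 and 80.3 CPM from 179 and 107 UMIs, a log2 ratio of -0.72 (-1.08 to -0.37). In cluster 3 its ratio was -0.19, from 21.8 and 19.0 CPM. The difference between these ratios was not tested.

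Among the 10 highest, some were raised in every cluster compared and some in cluster 8 above the arterial cluster. The unnamed gene si:dkey-85k7.7 was at 66.7 CPM (wildtype) and 214 CPM (mutant), a log2 ratio of 1.67, and at 88.6 and 266 CPM in cluster 3. The RNA-binding gene nono (0.84) and the endoplasmic reticulum disulfide isomerase gene pdia3 (0.91) were higher in the mutant library in all 5 clusters. The recycling GTPase gene rab11bb (1.40) was at 71.1 and 189 CPM in cluster 8 and at 163 and 317 CPM in cluster 3. The gap junction gene cx43 stood at 114 and 254 CPM in cluster 8 (1.15, interval 0.87 to 1.44) and at 678 and 719 CPM in cluster 3 (0.08). The matrix protein periostin, from postnb, stood at 219 and 414 CPM in cluster 8 (0.92) and at 454 and 464 CPM in cluster 3 (0.03). For cx43, cebpd and postnb the mutant value of cluster 8 remained below that of cluster 3. The endocytic adaptor gene dab2, also a venous gene, stood at 180 and 368 CPM (1.03) against 466 and 662 CPM (0.51). The lysosomal enzyme gene hexb had a ratio of 0.84, and rrm2.1, the table's label for the second of 2 genes named rrm2, had 0.84 in cluster 8 and 0.89 in cluster 3. In cells of the matrices gated on 3 of the 4 markers, which held far more lyz and red cell transcripts than cluster 8, the ratio had the other sign for cx43 (-0.024), cebpd (-0.32), dab2 (-0.22), postnb (-0.17) and hbae1.1.1 (0.25).

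**Figure D4:**
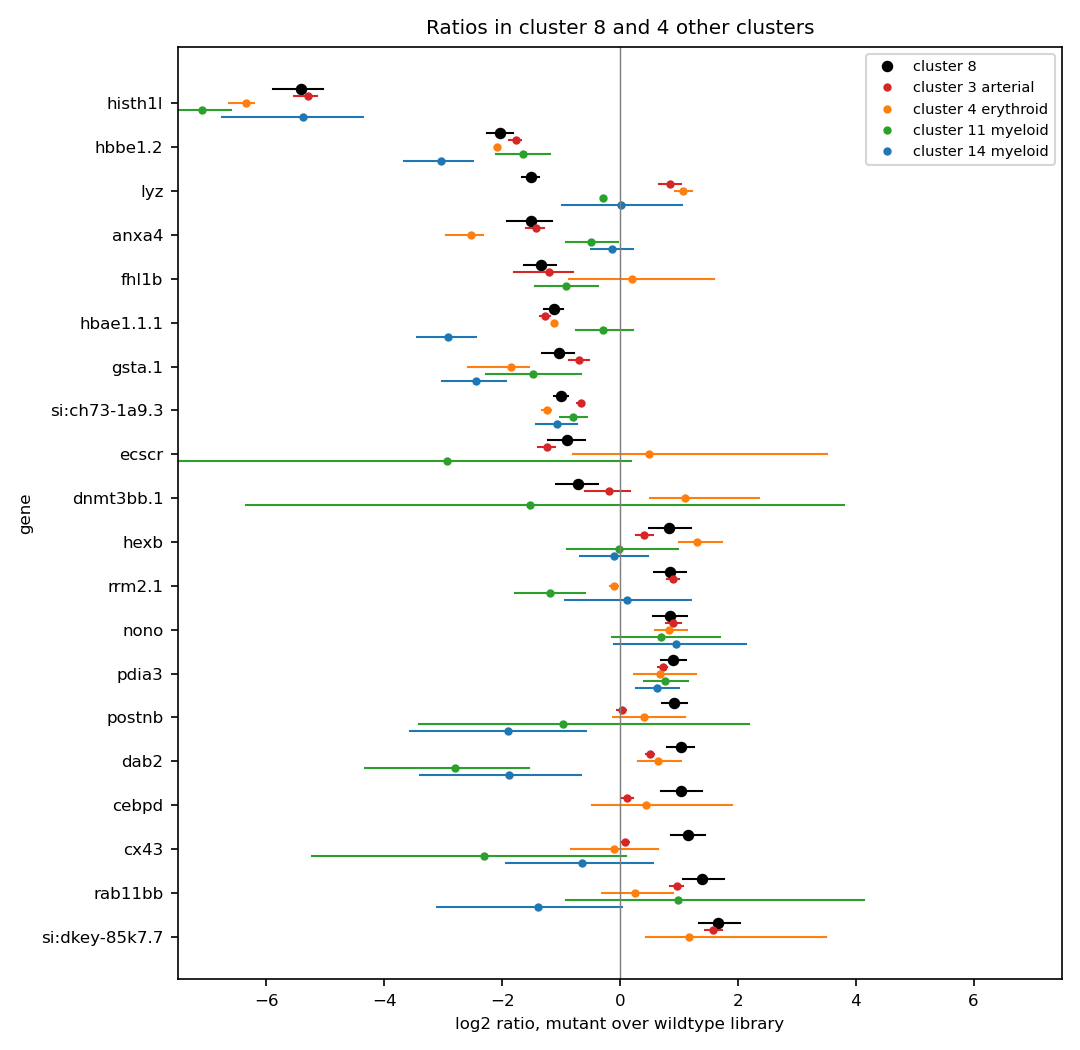
Log2 ratio of mutant over wildtype with exact conditional 95% intervals for the 10 lowest and 10 highest genes of cluster 8 (rows), in cluster 8 (black) and in clusters 3, 4, 11 and 14 (colours); a cluster with no UMI in 1 library is not drawn, and lines end at the edge of the plot. The ratio of histh1l is near or below -5.30 in all clusters, and lyz is left of 0 in cluster 8 and right of 0 in clusters 3 and 4.

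The gene lists differed in how their members were spread around the median of all genes. All 10 mitosis genes tested were higher in the mutant library, with a median log2 ratio of 0.44, and 21 of all 24 in the table were higher and 2 lower. Over all genes tested, 2310 of 3973 were higher, and the intervals of 485 lay above 0. The intervals of 3 of the 10 mitosis genes lay above 0, and 1 gene, the cyclin gene ccna2, reached 2-fold, at 20.7 CPM (wildtype) and 45.8 CPM (mutant) (1.11, interval 0.47 to 1.84). The 24 genes summed to 394 and 589 CPM in cluster 8, to 1077 and 1266 CPM in cluster 3, and to 1205 and 1005 CPM in cluster 4. The order of the libraries was thus not the same in every cluster. Of 21 replication genes 15 were higher and 6 lower, with a median of 0.15 and none at 2-fold.

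Of the 9 trimming and branching genes tested 8 were higher, beside 2310 of 3973 over all genes, with a median of 0.23 and none at 2-fold. The glucosidase subunit gene prkcsh had the highest ratio of them, at 54.8 CPM (wildtype) and 95.3 CPM (mutant) (0.79, interval 0.37 to 1.23). The precursor and transfer list had 5 of 12 higher, with a median of -0.04. The Notch list had 3 of 6 higher, and the largest was her9 at 20.7 and 41.3 CPM (0.96, interval 0.31 to 1.70), from 28 and 55 UMIs.

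Endothelial genes did not move together. Over all 3973 genes tested, 2310 were higher, 1.33% were at least 2-fold lower, and the intervals of 485 lay above 0 and those of 281 below it. Of 14 pan-endothelial genes 9 were higher and 5 lower with a median of 0.12, of 5 arterial genes 3 were higher, and none of these 19 reached 2-fold. Of 15 erythroid genes 12 were higher, 1 was at least 2-fold lower (hbbe1.2), and the median was 0.26. The intervals of 6 of the 15 lay above 0 and those of 3 below it. The summed level of that list was 9529 CPM (wildtype) and 9566 CPM (mutant), a sum that includes the globins hbbe1.2 and hbae1.1.1, lower in the mutant library in all 5 clusters. In gated cells the median was 1.12, and in the stricter gate 0.95, beside -0.10 and 0.03 over all genes tested there. Of 7 pan-leukocyte genes 4 were higher and the median was 0.04. The chemokine receptor gene cxcr4b had the largest of these ratios, at 69.6 and 111 CPM (0.67, interval 0.29 to 1.06). The ribosome biogenesis list had 13 of 22 higher, about the share of all genes, and a median of 0.09. The lists with 1 to 6 genes tested had medians of 0.18 for DNA methylation (6 genes), 0.44 for venous genes (3), 0.10 for macrophage genes (2), 0.25 for thrombocyte genes (1) and -0.33 for stem cell receptors and adhesion (1), and no lymphoid gene was tested.

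**Figure D5:**
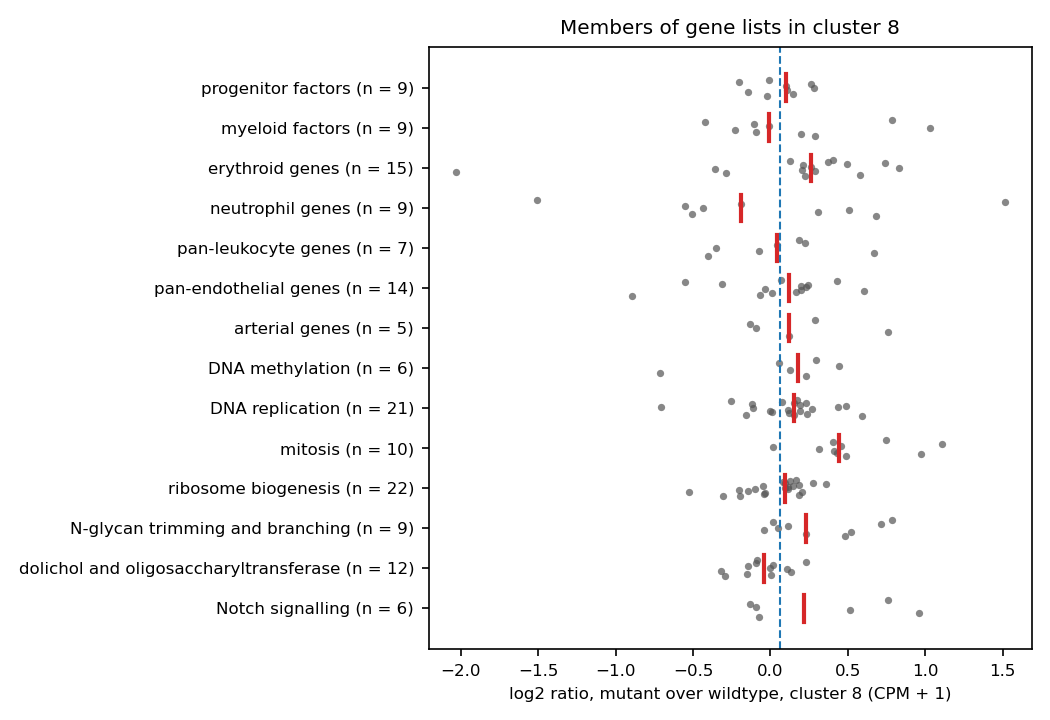
Log2 ratio of mutant over wildtype in cluster 8 for the members of 14 gene lists that reach a mean of 20 CPM (points), with each list's median (red bar) and the median of all genes tested, 0.06 (dashed line). The 10 mitosis genes all lie to the right of 0, while the progenitor factors lie between -0.21 and 0.28.

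The reporters of the lines were in the same table. The eGFP transcript, driven through the activator at miR-223, was at 1451 CPM (wildtype) and 2093 CPM (mutant) in cluster 8, or 10.7 and 15.2 UMIs per cell. Cluster 8 was the second in eGFP level among the 15 clusters in the wildtype library and the third in the mutant library, with cluster 11 first at 2242 and 4430 CPM. Arterial cluster 3 held 171 and 157 CPM. The activator transcript GAL4 was sparse at 18.5 and 24.02 CPM. The log2 ratio of eGFP was 0.53 (0.44 to 0.61) in cluster 8 and 0.98 in cluster 11, and the activator allele and the mutation cannot be told apart here. The kdrl-driven mCherry transcript stood at 98.5 and 165 CPM in cluster 8 (0.74, interval 0.43 to 1.07) and at 155 and 274 CPM in cluster 3 (0.82).

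Markers of tissues that a trunk sort could carry along were low in cluster 8. The 7 muscle markers summed to 97.1 CPM (wildtype) and 87.1 CPM (mutant), and the 7 neural, 7 mesenchymal and 7 epidermal markers to at most 57.1 CPM in either library.

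The count matrices allowed a look at single cells that carry the markers. A cell passed the gate with a UMI of at least 3 of the 4 markers, at least 500 genes and at most 10% mitochondrial UMIs, which gave 304 of 7520 wildtype and 307 of 8464 mutant cells. These cells are no stand-in for cluster 8. Their median depth was 14293.5 and 14566 UMIs, and they held 7643 and 5269 CPM of lyz and 256 and 423 CPM of alas2, far above cluster 8, so cells with neutrophil and red cell transcripts passed as well. After thinning to 2000 UMIs per cell, which left out 5 and 3 shallower cells, gata2b was seen in 7.69% of wildtype (exact binomial interval 4.94 to 11.3) and 7.24% of mutant gated cells (4.59 to 10.8). Muscle-gated cells, used as a background although red cells or doublets may be among them, had it in 0.498% and 0%. Their median depths were 26396 and 24545 UMIs. For gfi1aa the gated shares were 8.70% and 3.95%, with intervals of 5.76 to 12.5 and 2.06 to 6.79, against 0.498% and 0% in muscle. Both genes were thus seen more often in gated than in muscle-gated cells. The muscle gate leaves out any cell with a UMI of the 4 markers, so this cannot show that either gene is above free RNA. In the stricter gate, at the same 2000 UMIs, the mutant share was the higher one, with 6.43% and 11.45% for gfi1aa and 5.26% and 8.40% for gata2b. Unthinned, the wildtype share was the higher one in both gates. It was 23.0% and 16.3% for gata2b and 21.4% and 18.2% for gfi1aa in the gate, and 28.1% and 26.7% and 28.7% and 24.4% in the stricter gate. No order of the libraries is read from these shares.

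The gated share of cdh5 was at or below the background. The gene cdh5 was seen in 8.03% of wildtype and 6.91% of mutant gated cells, and in 14.4% and 8.54% of muscle-gated cells. Since doublets may be among the muscle-gated cells, these shares cannot show whether gated cells carry cdh5 of their own. At 2000 UMIs the shares of the other 2 endothelial genes were higher in gated cells, with intervals that overlapped those of muscle. For kdrl they were 10.4% (7.15 to 14.4) and 8.55% (5.66 to 12.3), against 5.97% (3.12 to 10.2) and 4.98% (2.75 to 8.22). For dll4 the shares were 8.03% and 4.93% against 5.47% and 2.14%. At 1000 UMIs per cell kdrl was lower in gated cells, at 2.63% and 2.93% against 3.92% and 3.53%. There dll4 had 4.93% and 2.93% against 2.94% and 1.06%. Unthinned, kdrl had 25.7% and 31.6% against 28.4% and 27.6%, and dll4 had 25.7% and 20.8% against 15.7% and 9.54%. The order for kdrl thus depended on the depth. The share with lyz was 23.7% and 31.3% in gated cells, against 17.4% and 26.0% in muscle. At 1000 UMIs per cell it was 13.8% and 22.5% against 6.86% and 11.3%. The share with spi1b was 11.4% and 16.4%, where muscle had 0% in both libraries, with exact binomial upper limits of 1.82% and 1.304%. The share with runx1 was 1.67% and 0.987%, with 5 and 3 cells, and muscle had none. Unthinned, the gated shares were 28.0% and 25.1% for cdh5, 58.6% and 83.1% for lyz, 30.6% and 32.2% for spi1b, and 4.93% and 3.91% for runx1. Muscle-gated cells, which were deeper, had higher unthinned shares of cdh5 (34.8% and 27.6%) and of lyz (74.5% and 89.0%). Their unthinned shares of spi1b and runx1 were below the gated ones. The unthinned shares thus do not show cdh5 or lyz in gated cells above the background.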

How the data were processed

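Droplet libraries of sorted trunk cells, 1 per genotype, were demultiplexed with bcl2fastq and processed with Cell Ranger and Seurat against GRCz11, per the submitters' processing notes; the matrices name software version 3.0.2, per the file headers. The deposited matrices hold UMI counts. The authors' deposited table gives, for 17822 features and 15 clusters in each library, the mean UMI count per cell, not log-transformed. The smallest nonzero value of a column is 1 divided by its number of cells, so each column was multiplied back to whole sums, with a largest deviation of 9.31e-10.

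From these sums CPM were computed, with 1 CPM added before log2 ratios. Genes whose mean reached 20 CPM were tested, and at least 2-fold was called. Exact Poisson, binomial and conditional 95% intervals cover counting error only. With 1 library per group no test of genotype was possible. Named genes were the 4 markers, 12 leading genes, the 5 with the largest excess over each comparison cluster, and the 10 highest and 10 lowest ratios above 100 CPM. The members and lists were chosen with earlier results of these data known, and the ribosome biogenesis list after the values were seen. Genes whose symbol repeats (hbae1.1.1, hbae1.1, rrm2.1, mmp13a, ube2c, alg5) are uncertain. Cells of the matrices were gated with at least 500 genes and at most 10% mitochondrial UMIs. No doublet caller was run, and doublets may be among the gated cells. Muscle-gated cells had at least 3 UMIs over at least 2 muscle genes and none of the 4 markers. The functions were tested on simulated data. Python 3.11.15, NumPy 2.4.6, SciPy 1.17.1 and pandas 2.3.3 were used. Alternatives were other scalings, pseudocounts and filters and the gated cells.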

Additional observations from a re-analysis of the deposited data

Results flagged for a closer look

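These results stand here because the ratio of mutant over wildtype in cluster 8 had the opposite direction in another cluster. With 1 library per genotype none of these differences was tested, and each is the log2 ratio in cluster 8 minus that in the other cluster.

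For lyz the difference was -2.35 against cluster 3 and -2.57 against cluster 4, since lyz was lower in the mutant library in cluster 8 (1171 and 411 CPM) and higher in cluster 3 (66.0 and 119 CPM) and cluster 4 (100 and 211 CPM). For dnmt3bb.1 it was -1.83 against cluster 4, which held only 13 and 70 UMIs. For fhl1b it was -6.79 against cluster 14, where the wildtype library had no UMI and the mutant library had 11 (0 and 42.4 CPM), so the size depends on the added CPM.

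For dab2 the difference was 3.82 against cluster 11 (60.1 and 7.81 CPM) and 2.92 against cluster 14 (103 and 27.0 CPM). For postnb it was 2.82 against cluster 14, from 20 and 6 UMIs there. For rrm2.1 it was 0.94 against cluster 4 (601 and 560 CPM) and 2.03 against cluster 11 (192 and 83.8 CPM).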

How the results depend on the processing

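No paired analysis was possible because each genotype has 1 library, and no replicate could be left out. Median-of-ratios scaling, totals without globin genes and mean UMIs per cell gave 62 to 68 genes at least 2-fold higher, against 67. They gave 54 to 57 lower, against 53. None of the 44 named ratios moved by more than a tolerance set by the width of its counting interval. For the 18 list medians the tolerance came from the intervals of single member genes and is no interval of the median. None of the 18 moved by more than that. With 5 CPM added, the counts were 45 and 38. The counts followed the filter: 309 higher and 252 lower at a mean of 5 CPM, and 5 and 7 at 100 CPM, where fewer genes enter. Against the other clusters, 100 CPM left 99 higher and 162 lower than cluster 3, 251 and 68 than cluster 4, 211 and 206 than cluster 11, and 139 and 210 than cluster 14. The difference in share (mutant minus wildtype) was 2.35 percentage points over clusters 3 and 8 alone (Newcombe interval -0.955 to 5.68), and -0.73 for the stricter gate over all kept cells (-1.16 to -0.302). That gate needs 2 UMIs of spi2, itself lower in the mutant library of cluster 8 (1070 and 797 CPM). Its share is therefore not separate from the level of spi2.

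Gated cells in place of the cluster differed more, and the cause was not tested. Of the 120 genes past 2-fold, 39 were past it in gated cells too and 48 in the stricter gate. A gene also had to reach 20 CPM in the gate to be counted. Over all genes tested, 56 of 3443 were higher and 47 lower by 2-fold in gated cells. In the stricter gate 63 of 3664 were higher and 39 lower. The median log2 ratio over all genes tested was -0.10 in gated cells and 0.03 in the stricter gate. The globin gene hbae3 stood at 15811 CPM (wildtype) and 36140 CPM (mutant) in gated cells, and its part in the medians was not tested. In gated cells list medians were -0.42 for progenitor factors, 1.12 for erythroid, -0.42 for pan-leukocyte, -0.46 for pan-endothelial, -1.01 for arterial, -0.22 for venous, -0.40 for trimming and branching and -0.35 for Notch genes. In the stricter gate they were 0.95 for erythroid, 0.77 for neutrophil and -0.39 for Notch genes. Ratios turned in gated cells for hbae1.1.1 (0.25), cx43 (-0.024), cebpd (-0.32), dab2 (-0.22), postnb (-0.17), cplx2l (-0.55) and adam8a (-0.28), and in the stricter gate for lyz (0.11), hbae1.1.1 (0.093) and tnni4b.2 (0.24). Lymphoid genes gave no value in any setting, macrophage, thrombocyte, receptor and mitosis genes none at 100 CPM, and receptor genes none in gated cells. Thinning to 1000 UMIs moved 27 of 40 gated shares and the stricter gate 11 of 40.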

Other observations

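As a description over 2991 genes, the profile of cluster 8 was nearest to that of cluster 1, with a Pearson r of log2(CPM + 10) of 0.868 in the wildtype library and 0.878 in the mutant library. Arterial cluster 3 came next with 0.862 and 0.869. Several clusters not compared here followed, among them cluster 9 (0.833 and 0.827) and cluster 7 (0.823 in both libraries). They ranked above erythroid cluster 4, which had 0.813 and 0.823. Myeloid cluster 11 had 0.753 and 0.744, and cluster 14 had 0.765 and 0.740. Genes are not independent, the clusters of a library share its free RNA, and clusters 11 and 14 hold few cells. The order thus carries no test and is no measure of lineage.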
